A study of Mus musculus with 16 samples.

Results

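The Rab genes encode the largest family of small GTPases of the Ras superfamily, and they were followed here through the dorsal hippocampus of trained and untrained mice. Every gene was taken whose symbol is Rab and a number, with or without 1 letter and 1 further digit, which gave 59 of the 24972 genes listed in the bulk RNA-seq files. The rule reads the symbol alone. The 16 libraries came from CA1, CA3 and dentate gyrus (DG) tissue of adult ArcCreERT2::eYFPflx mice on a C57BL/6 background, in which Cre under the Arc promoter can be switched on by tamoxifen to label cells with eYFP. All groups carried these alleles. Trained mice learned active place avoidance, in which a rotating arena carries the animal towards an unmarked shock zone that it must leave. Untrained mice spent the same sessions in the arena with the shock off. Tissue was collected after a retention test on the day after the last session, and the pieces of each subregion were pooled within an animal. The groups were 3 trained and 3 untrained CA1 libraries, 3 trained and 2 untrained CA3 libraries, and 3 trained and 2 untrained DG libraries, from 3 trained and 3 untrained animals.

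Rab proteins are molecular switches that sit on membranes in the GTP-bound state and recruit effectors that move, tether and fuse vesicles. Exchange factors load them with GTP, GTPase activators turn them off, and a chaperone, GDI, returns them to the cytosol. In neurons the Rab3 proteins ride on synaptic vesicles and regulate transmitter release, while endosomal members such as Rab11a and Rab15 return receptors to the plasma membrane.

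Several features of the libraries bear on the labels and are given before the results. The deposited values are estimated counts normalized by the authors and summed to between 7607326 and 7984931 per library, and the number of genes at 0 ran from 3124 to 9759. It was 8323 to 9759 in trained and 3124 to 5425 in untrained CA1, and 3479 to 5944 in trained and 7567 to 8636 in untrained DG. In CA3 the groups overlapped, at 3171 to 8692 trained and 3578 to 5659 untrained. In CA1 and DG its part in a difference and that of training cannot be told apart. Xist, transcribed from the inactive X chromosome, lay between 7601 and 19592 in the 9 trained libraries and between 25.5 and 52.4 in 6 of the 7 untrained ones. The library labelled CA3 untrained 1 had an Xist value of 10587, although CA1 and DG of the same labelled animal had 26.1 and 25.5. Ddx3y, a gene of the Y chromosome, was 448 to 553 in those 6 untrained libraries, 201 in CA3 untrained 1 and 1.66 to 255 in the trained ones. The trained libraries with the most were DG trained 3 at 255, CA1 trained 3 at 101, CA3 trained 3 at 92.9 and CA1 trained 1 at 70.9, so these and CA3 untrained 1 held both Xist and Y-linked transcripts. The study's methods assign females and males to both training groups, which these values do not match, and whether animals, labels or mixed material account for this was not tested. Sex-linked transcripts and training nearly coincide here and their parts in a difference cannot be told apart. The granule cell marker Prox1, a transcription factor that defines DG granule neurons, was high under every label, with group means between 3184 and 4344, and 0 of 7 DG granule markers differed between any pair of subregions. The 6 CA1 neuron markers summed to 2734 to 4270 in untrained CA1, to 1390 to 1774 in trained CA1, and to 866 to 1683 in the CA3 and DG libraries. The subregion names below are therefore the labels of the dissected tissue and not pure cell populations, and in such bulk tissue fewer cells of a type and less RNA per cell cannot be told apart.

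The Rab genes covered a wide range of levels. Averaged over the 16 libraries, 12 had a normalized value of at least 1000, 30 lay between 100 and 1000, 10 between 10 and 100 and 7 under 10. The 7 lowest were Rab42, Rab38, Rab44, Rab20, Rab17, Rab19 and Rab25. Rab17 and Rab25 are best known from epithelial cells, and Rab38 from melanosomes. Rab25 was listed at 0 in 12 libraries, Rab19 in 10, Rab17 in 7, Rab20 in 4 and Rab44 in 2, and no Rab gene was at 0 in all 16. Together the Rab genes made up 0.435 to 0.493% of the summed values in trained libraries and 0.419 to 0.457% in untrained ones, ranges that overlapped.

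Divided by the median length of a gene's coding transcripts in kilobases, the highest level was that of Rab6b, at 2104 ± 180 (SD, n = 16 libraries), a brain-enriched Rab6 paralog that returns vesicles from the Golgi to the endoplasmic reticulum. Rab14, which works between the Golgi and endosomes, followed at 1722 ± 78.9 per kb. Rab15, a neuron-enriched Rab of early and recycling endosomes, had 1543 ± 390. Rab3a, the main Rab of synaptic vesicles, reached 1415 ± 153, and Rab11a, which marks the recycling endosome, 1316 ± 145. These 5 genes held 41.2% of the summed Rab level per kb. The order rests on the division by length, the median length being 551.5 bases for Rab11a and 758.5 for Rab15. Before division Rab6b was also first, with a mean of 6021, but Rab6a at 3298 and Rab3c at 2546 followed, then Rab3a at 1945, while Rab14 was at 1593, Rab15 at 1170.1 and Rab11a at 726. Rab6b exceeded Rab14 in 16 of 16 libraries and Rab3a exceeded Rab11a in 15 of 16. Rab14 exceeded Rab15 in only 10 of 16, and Rab15 exceeded Rab3a in 12 of 16, so neighbours in the middle of this order were not separated in all libraries. The place of Rab15 came from pooling the training groups. In trained libraries it averaged 1815 ± 249.9 per kb (SD, n = 9), above Rab14 at 1705 ± 93.4, and in untrained ones 1193 ± 209 (SD, n = 7), below Rab3a at 1290 ± 89.4 and Rab11a at 1208 ± 67.5. Rab3c stood at 1062 ± 106 per kb, and Rab3b and Rab3d were far lower at 99.8 and 69.2.

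**Figure D1:**
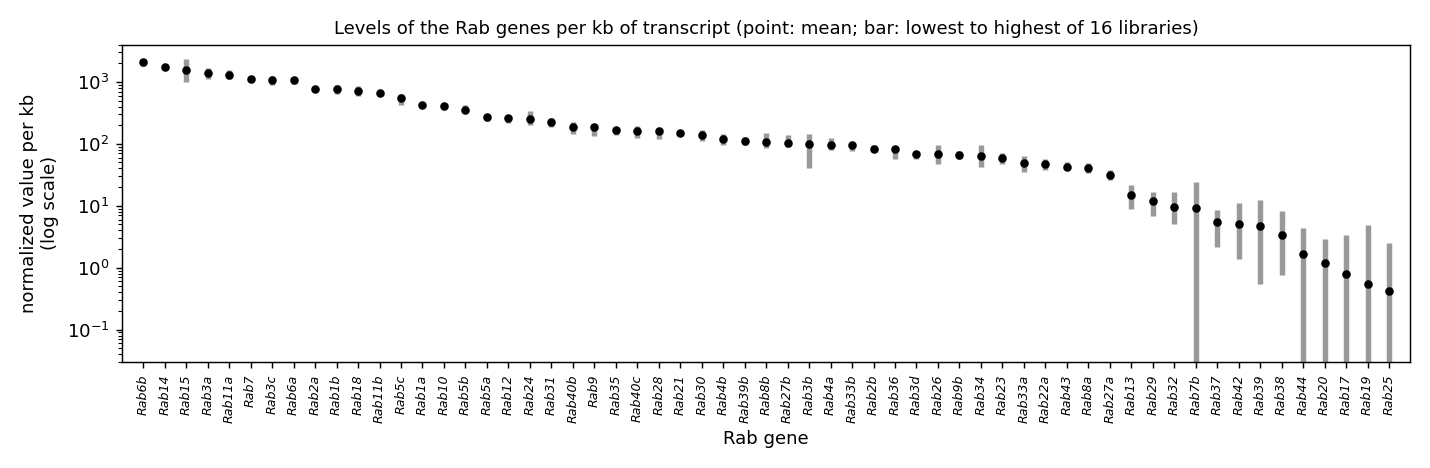
Mean normalized value per kilobase of coding transcript for the 59 Rab genes over 16 libraries on a log axis, with bars from the lowest to the highest library. Bars that reach the bottom edge include libraries at 0. Rab6b leads at 2104 and Rab15, at 1543, has a wide bar for its level.

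In the comparison of trained with untrained libraries over all subregions, 5 Rab genes were higher with training and none was called lower, and most Rab genes differed little. A low-value filter left 52 Rab genes, all but the 7 lowest, and in CA1 alone it also removed Rab7b. The log2 fold changes were fitted with limma on log2(value + 2), which understates changes of low genes. SE is the standard error of a log2 fold change, and adjusted p-values are those of limma over all genes tested. At an adjusted p under 0.05, 5 of 52 (9.62%) were higher in trained libraries and 0 were lower, against 10.3% of all 14673 genes called in either direction, 6.28% of them higher and 4.06% lower. The share of Rab genes called was thus near that of all genes. This fit treated libraries of the same labelled animal as independent. With the mean per animal, 4 Rab genes were called, Rab11a, Rab15, Rab3a and Rab6b, and 1090 of all genes. By unadjusted p under 0.05, 15 of 52 Rab genes passed (28.8%; all genes 25.5%). The fold change was above 0 for 34 of 52 Rab genes (65.4%, all genes 47.8%), with a median of 0.06 against -0.01 for all genes, and 43 of 52 fold changes were smaller than 0.2 on the log2 scale. Across the 3 subregions taken separately, 17 of the 51 genes tested in each were above 0 in all 3 and 3 were below 0 in all 3. Those 3, named after their values were seen, were Rab14, Rab23, a negative regulator of Hedgehog signalling, and Rab34, which takes part in building cilia. None of these 3 passed the test in this fit. With the number of genes at 0 as a covariate, 6 Rab genes were called higher and 1 lower, Rab34 being among those called (all genes 1879). Without trained 1, 4 were called higher and 1 lower, Rab23 being among those called (all genes 1023). With a sex-linked covariate in the fit, limma called 0 of all genes in the combined comparison, Rab genes included, and 1702 of all genes and 6 Rab genes had an unadjusted p under 0.05. The fold changes of the 5 genes stayed above 0 and were larger in that fit, at 0.95 for Rab15, 0.56 for Rab26, 0.34 for Rab3a, 0.34 for Rab6b and 0.27 for Rab11a, with adjusted p-values of 0.0502, 0.438, 0.2004, 0.138 and 0.379. Since this covariate and training nearly coincide, these larger values do not show a change apart from it. Without the animal labelled trained 2 the count fell to 2 Rab genes and 554 of all genes, without untrained 1 to 3 and 456, and without untrained 2 to 3 and 900, from 5 and 1517.

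**Figure D2:**
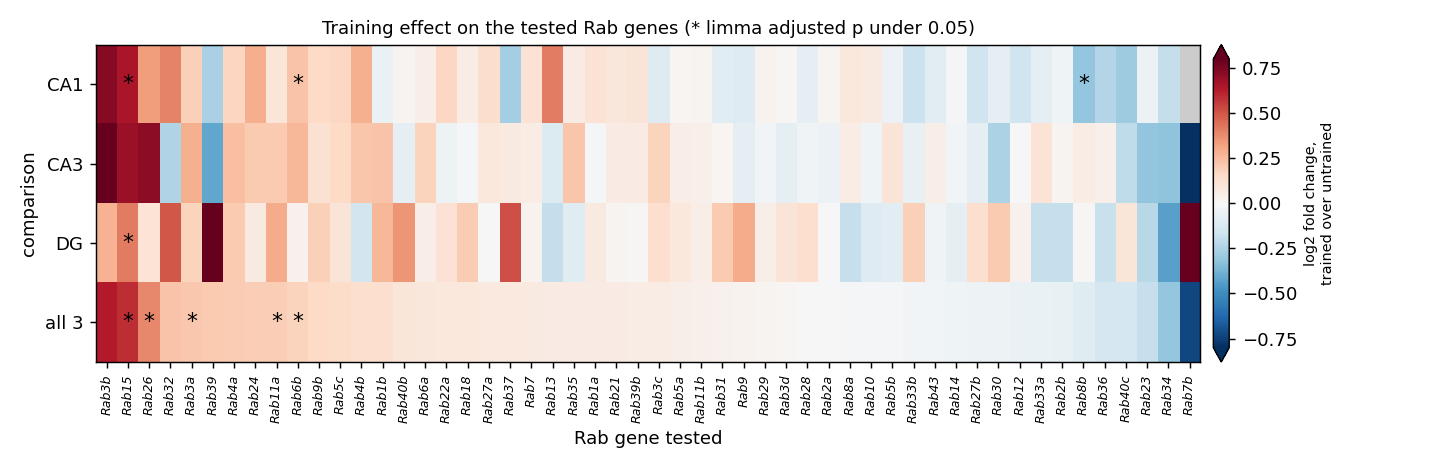
Log2 fold change of trained over untrained libraries for the 52 tested Rab genes in CA1, CA3, DG and all 3 subregions combined, ordered by the combined value. Red is higher in trained libraries, blue lower, and grey not tested; colours saturate at the ends of the scale. Asterisks mark adjusted p under 0.05, which 5 genes reached in the combined row, 3 in CA1, none in CA3 and 1 in DG.

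Rab15 had the smallest p of all Rab genes in the combined comparison, in CA1 and in DG. The gene lies on the minus strand of chromosome 12, 76797960 to 76822908 (GRCm38). In CA1 its normalized value was 765, 756 and 853 in untrained libraries and 1221, 1273 and 1231 in trained ones. The CA1 groups did not overlap, and the trained values lay close together. The CA1 log2 fold change was 0.65 (SE 0.066, adjusted p = 1.32e-05). In CA3 untrained libraries had 756 and 1088 and trained libraries 1211, 1429.8 and 1794. Here too no trained value fell below an untrained one, but the values were spread widely, and the change of 0.68 did not pass (SE 0.227, adjusted p = 0.256). It was 0.42 without untrained 1 and 0.95 without untrained 2, fits that leave 1 untrained library. The CA3 difference passed in 4 of 15 alternatives. Among them were the sex-linked covariate (log2 fold change 1.26, adjusted p 0.0310), the number of genes at 0 as a covariate (0.90, adjusted p 0.00151) and all 16 libraries in 1 fit (0.68, adjusted p 0.0328). The sex-linked covariate was -6.19 in CA3 untrained 1, 3.24 in CA3 untrained 2 and -11.7 to -7.72 in trained CA3. Its fit thus leans on CA3 untrained 1 and cannot show a change apart from sex-linked transcripts. DG libraries had 1014 and 1100.1 without training and 1369, 1533 and 1327 with it. These were again separated, with a log2 fold change of 0.41 (SE 0.078, adjusted p = 0.0112). Over all subregions Rab15 averaged 905 ± 158 (SD, n = 7) without training and 1377 ± 189.5 (SD, n = 9) with it, a log2 fold change of 0.59 (SE 0.082, adjusted p = 0.000498).

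The combined difference of Rab15 kept its direction and passed in 16 of 17 alternatives. The exception was the sex-linked covariate, with a log2 fold change of 0.95 and an adjusted p of 0.0502. In CA1 that covariate gave 0.48 with an adjusted p of 0.9997, and the number of genes at 0 as a covariate gave 0.59 with an adjusted p of 0.654, both in a fit of 6 libraries. The DG call was lost in 4 of 15 alternatives, which were leaving out trained 2 (adjusted p 0.0910), the sex-linked covariate (log2 fold change 0.14, adjusted p 0.9996), the number of genes at 0 as a covariate (0.60, adjusted p 0.333) and all 16 libraries in 1 fit (0.41, adjusted p 0.158). The training effect on Rab15 differed between CA1 and DG by 0.24 (SE 0.207, adjusted p = 0.596), so a difference between these subregions was not detected. The 8 neuron markers summed to 48193 to 48830 in trained and 41743 to 43411 in untrained CA1, and 6 of 8 were higher in trained CA1. In CA3 and in DG taken alone limma called 0 of 8, but over all subregions 4 of 8 were higher, with sums of 48193 to 54808 in trained and 41743 to 52267 in untrained libraries. The 6 CA3 neuron markers also moved in CA1, where 4 were higher and 1 lower, with sums of 10312 to 10514 in trained against 7359 to 8099 in untrained libraries. Over all subregions 3 of these 6 were higher and 1 lower, and 2 of 8 astrocyte and 1 of 7 granule cell markers were lower. The part of these shifts in the Rab15 difference and in the other combined calls was not tested.

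Promoter windows are printed for the 3 Rab genes higher over all subregions whose window lies mostly outside annotated UTRs, to show what their sequences have in common. They are the 250 bases before the RefSeq start nearest to the annotated gene start, written along the gene's own strand in GRCm38.p6, with matches to the searched motifs in capitals.
Rab15 (chr12:76822525-76822774, minus strand): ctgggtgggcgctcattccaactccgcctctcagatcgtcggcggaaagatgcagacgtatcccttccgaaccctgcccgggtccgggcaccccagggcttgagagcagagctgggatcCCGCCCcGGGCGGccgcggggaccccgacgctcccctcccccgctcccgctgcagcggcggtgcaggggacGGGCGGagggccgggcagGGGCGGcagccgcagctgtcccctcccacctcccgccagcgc
Rab3a (chr8:70754453-70754702, plus strand): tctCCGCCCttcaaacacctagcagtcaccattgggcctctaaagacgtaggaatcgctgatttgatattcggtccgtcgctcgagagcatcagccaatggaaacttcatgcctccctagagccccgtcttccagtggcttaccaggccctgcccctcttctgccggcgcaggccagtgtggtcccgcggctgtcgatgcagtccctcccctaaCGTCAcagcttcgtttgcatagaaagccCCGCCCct
Rab11a (chr9:64737757-64738006, minus strand): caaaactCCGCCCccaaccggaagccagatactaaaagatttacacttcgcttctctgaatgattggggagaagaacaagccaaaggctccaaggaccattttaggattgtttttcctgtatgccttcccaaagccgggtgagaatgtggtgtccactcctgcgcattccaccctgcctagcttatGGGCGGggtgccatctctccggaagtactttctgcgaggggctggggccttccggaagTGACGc
The motifs, searched on both strands, were the cAMP response element TGACGTCA, its shorter core TGACG, which also lies within the full element, the AP-1 site TGANTCA, the GC box GGGCGG and the EGR site GCGTGGGCG. A GC box occurred 4 times in the Rab15 window and 2 times each in those of Rab3a and Rab11a. It was found in 33 of the 48 Rab windows in the RefSeq table (68.8%) and in 32.7% of all 32841 windows. The shorter core was present once each in the windows of Rab3a and Rab11a but not in that of Rab15, and in 23 of 48 Rab windows (47.9%) against 17.8% of all windows. The full element was found in 2 of 48 Rab windows, AP-1 in 1 and the EGR site in 0, against 1.55%, 6.75% and 0.536% of all windows. G and C made up 75.2% of the Rab15 window, 58.8% of the Rab3a window and 53.6% of the Rab11a window, with medians of 60.6% for Rab genes and 52.4% for all windows. The start used for Rab15 is 1 of 4 listed and lies 384 bases downstream of the GENCODE gene start, so all 250 bases of its window fall inside the annotated gene. The starts of Rab3a and Rab11a lie 24 and 2 bases downstream of theirs, so that only the last 24 and 2 bases of the window are inside the gene. These are matches of letters, not sites shown to be bound.

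**Figure D3:**
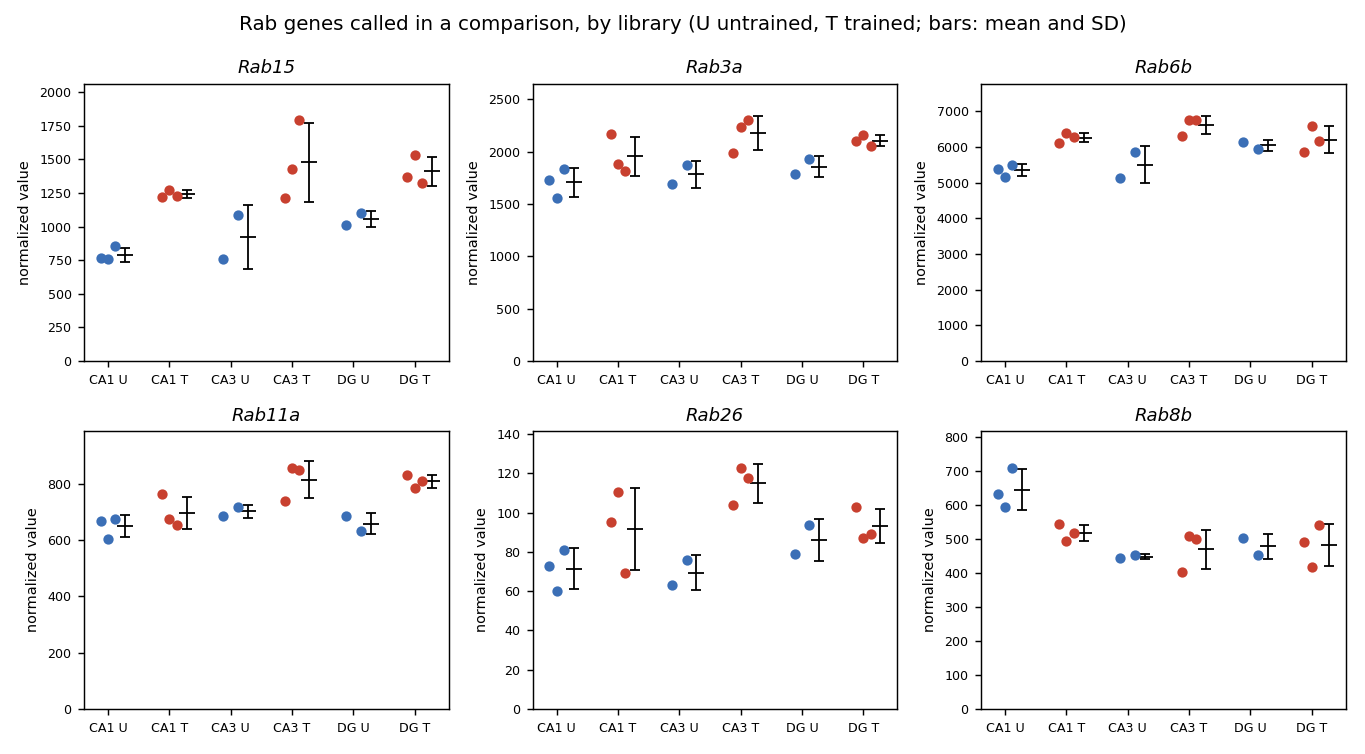
Normalized value of the 6 Rab genes called in any comparison, one point per library, by subregion and training (U untrained, blue; T trained, red), with the group mean and SD as bars beside the points. Trained Rab15 values of 1211 to 1794 all lie above the untrained values of 756 to 1100, while Rab8b is highest in untrained CA1 at 593 to 711.

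Among the Rab3 genes, only Rab3a passed the test in the combined comparison. Rab3a (chromosome 8, 70754679 to 70758677, plus strand) had CA1 values of 1732, 1561 and 1835 in untrained and 2169, 1880.2 and 1818 in trained libraries. The CA1 groups overlapped by 1 library, trained 3. CA3 had 1695 and 1877 untrained and 1989, 2234 and 2303 trained, and DG 1789 and 1925 untrained and 2096, 2163 and 2055 trained. In both of these subregions the trained libraries were all above the untrained ones. Over all subregions the log2 fold change of Rab3a was 0.22 (SE 0.047, adjusted p = 0.00449), from 1773 ± 123 (SD, n = 7) to 2079 ± 160.3 (SD, n = 9). It was 0.19, 0.28 and 0.18 in CA1, CA3 and DG, with limma adjusted p-values of 0.144, 0.153 and 0.133. The exons of Rab3a overlap those of Mpv17l2 on the opposite strand, and the strand setting of the counting is not given in the sources used here, so reads from the shared stretch cannot be assigned. The same holds for the exons of Rab3b with 8030443G20Rik, Rab6a with Mrpl48, Rab7 with Gm5577 and Rab24 with Prelid1. Without the animal untrained 1, the combined adjusted p was 0.0791.

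Rab3b, a less abundant paralog also found on synaptic vesicles, had a larger fold change than Rab3a, with a wider spread. CA1 values were 99, 43.9 and 62.7 untrained and 134, 90.1 and 107 trained, and CA3 values were 89.8 and 45.8 untrained and 74.6, 147 and 155 trained. Both pairs of groups overlapped. In DG, 112 and 127 in untrained and 145, 154 and 136 in trained libraries did not overlap. The combined log2 fold change of 0.63 (SE 0.197, adjusted p = 0.0523) missed the threshold, and it passed in 4 of 17 alternatives. It was 0.38 without the animal untrained 2 and 0.88 without untrained 1, where it passed (limma adjusted p 0.0465). In CA1 against DG the log2 difference of Rab3b was -0.63 (SE 0.249, adjusted p = 0.186), which did not pass.

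Rab3c, the Rab3 gene with the largest normalized value before division by length, had 2889, 2472 and 2959.6 in untrained and 2654, 2438 and 2647 in trained CA1. Its CA3 values were 2205 and 2393 untrained and 2164, 3007 and 2701 trained, and its DG values 2253 and 2355 untrained and 2510.3, 2499 and 2579 trained. The groups overlapped in CA1 and CA3 and were separated upwards in DG. The log2 fold changes were -0.10, 0.18 and 0.13 in CA1, CA3 and DG, and 0.06 combined (SE 0.061, adjusted p = 0.602). With the sex-linked covariate the CA1 value turned to 0.53. Rab3d, known from secretory granules of exocrine cells, ranged from 128 to 175 over all libraries. Its combined log2 fold change was 0.01 (SE 0.074, adjusted p = 0.928), and no subregion passed. The difference of training effects between subregions did not pass for any Rab3 gene.

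**Figure D4:**
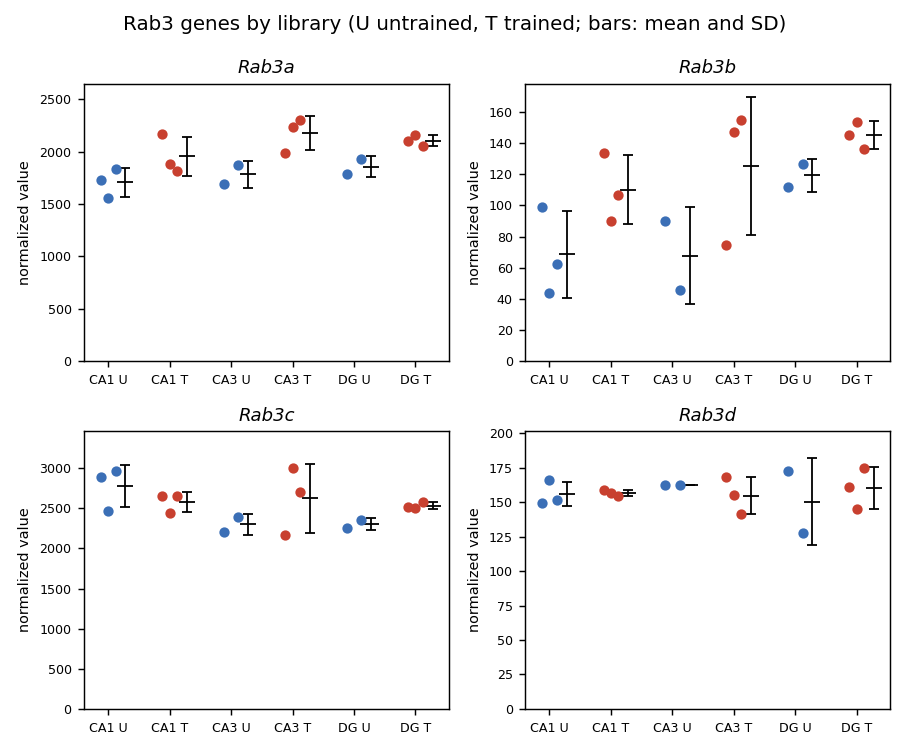
Normalized value of Rab3a, Rab3b, Rab3c and Rab3d in each library, by subregion and training (U untrained, blue; T trained, red), with group mean and SD as bars. Rab3a is higher in trained CA3 and DG without overlap, and Rab3d stays between 128 and 175 in all groups.

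Of the other secretory members, Rab26, which is associated with vesicle clusters at presynaptic sites, was called in the combined comparison. Rab26 (chromosome 17, 24527241 to 24534210, minus strand) had 63.1 and 75.7 in untrained and 104, 123 and 118 in trained CA3. These groups did not overlap, with a log2 fold change of 0.71 that just missed the threshold (SE 0.151, adjusted p = 0.0596). In CA1 (72.8, 60.2 and 81 untrained, 95, 111 and 69 trained) and in DG (78.6 and 93.4 untrained, 103, 87.1 and 88.9 trained) the groups overlapped. Combined, Rab26 rose by 0.38 on the log2 scale (SE 0.113, adjusted p = 0.0316), but this call was lost in 8 of 17 alternatives. One of these was the mean per animal, with an adjusted p of 0.0560, and another left out only CA3 untrained 1, with an adjusted p of 0.102. The exons of Rab26 overlap those of Traf7 on the same strand. In the whole synaptic and secretory group of 8 tested genes, 7 had combined fold changes above 0, with a median of 0.08, and 2 passed (all genes 47.8% above 0 and 10.3% called). In DG all 8 were above 0, with a median of 0.14, and 0 passed (all genes 50.1% above 0 and 3.39% called), 8 genes being too few to set against those shares.

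Rab6b (chromosome 9, 103111787 to 103185276, plus strand) was the gene of the Golgi group that was called. It had 5392, 5163 and 5498 in untrained and 6117, 6378 and 6274 in trained CA1, and 5134 and 5869 in untrained and 6314, 6743 and 6757 in trained CA3. Both sets were separated. In DG the values were 6149 and 5930.2 untrained and 5854, 6591 and 6169.6 trained, which overlapped. The log2 fold change was 0.23 in CA1 (SE 0.043, adjusted p = 0.00338) and 0.18 combined (SE 0.041, adjusted p = 0.00625). It was 0.04 in DG (SE 0.059, adjusted p = 0.781), and the difference of the CA1 and DG effects did not pass (0.19, SE 0.084, adjusted p = 0.239). The combined call of Rab6b was lost in 2 of 17 alternatives, without trained 2 (adjusted p 0.0764) and with the sex-linked covariate given above. Its CA1 call was lost with the sex-linked covariate (log2 fold change 0.14, adjusted p 0.9997) and with the number of genes at 0 as a covariate (0.12, adjusted p 0.963). Rab6a, the ubiquitous paralog, had a combined log2 fold change of 0.09 that did not pass (SE 0.042, adjusted p = 0.172). Of 12 tested genes of the endoplasmic reticulum and Golgi group, 5 had combined fold changes above 0, with a median of -0.01, and Rab6b was the only one called (all genes 10.3%).

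Rab11a (chromosome 9, 64715299 to 64737758, minus strand), whose recycling endosomes carry AMPA receptors into dendritic spines, rose in the combined comparison by 0.19 on the log2 scale (SE 0.050, adjusted p = 0.0131). It lay at 685 and 717 in untrained and 738, 857 and 847 in trained CA3, and at 683 and 631 in untrained and 831, 783 and 809 in trained DG. Trained libraries were above untrained ones in both. CA1 values of 667, 605 and 674 untrained and 762, 674 and 652 trained overlapped. The DG log2 fold change of 0.30 narrowly missed the threshold (SE 0.080, adjusted p = 0.0514). The combined call was lost in 4 of 17 alternatives, among them leaving out trained 2 (adjusted p 0.0567), untrained 1 (0.0753) or untrained 2 (0.0513). Rab11b, the closest paralog, had a log2 fold change of 0.04 (SE 0.043, adjusted p = 0.626). In the recycling group 5 genes were tested and 4 were above 0 in the combined comparison, with a median of 0.06, Rab15 and Rab11a being the 2 called, where 10.3% of all genes were called and the group is small. The fifth, Rab14, had a log2 fold change of -0.03 (SE 0.040, adjusted p = 0.643) and had untrained CA1 values of 1642, 1568 and 1622 against 1541, 1489 and 1769 in trained CA1, which overlapped.

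Rab8b (chromosome 9, 66843664 to 66919687, minus strand), which serves transport from the Golgi and recycling endosomes to the plasma membrane, was the only Rab gene called lower with training in the comparisons of single subregions. Its value was 632, 593 and 711 in untrained and 543, 496 and 517 in trained CA1, groups that did not overlap. The CA1 log2 fold change was -0.31 (SE 0.081, adjusted p = 0.0298). CA3 libraries had 444 and 453 untrained and 404, 508 and 499 trained, and DG libraries 504 and 453 untrained and 492, 418 and 541 trained. Both of these overlapped, with log2 fold changes of 0.06 and 0.01. The CA1 effect was not shown to differ from that in CA3 (-0.37, SE 0.146, adjusted p = 0.604) or DG (-0.32, SE 0.146, adjusted p = 0.249). The CA1 call was lost without trained 2 (adjusted p 0.137), trained 3 (0.0598), untrained 1 (0.0995) or untrained 3 (0.0959), and with all 16 libraries in 1 fit (0.0717). With the sex-linked covariate the direction turned, to 0.10 (adjusted p 0.9997), and with the number of genes at 0 as a covariate the value was -0.49 (adjusted p 0.849).

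Rab8b was also the Rab gene that differed between subregions. It was higher in CA1 than in CA3 by 0.33 on the log2 scale (SE 0.073, adjusted p = 0.0216) and than in DG by 0.27 (SE 0.073, adjusted p = 0.0383), each contrast averaging both training groups. Both calls were lost in 6 of 16 alternatives, among them the fits without trained 1 or untrained 1. The CA1 neuron markers moved with it. Their sum was highest in the 3 untrained CA1 libraries, at 2734 to 4270, where Rab8b was 593 to 711, and at most 1774 in the other 13 libraries, where Rab8b was 404 to 543. In trained against untrained CA1, 2 of these 6 markers fell, and the group means were 591 against 1139 for Wfs1, a protein of the endoplasmic reticulum, and 472 against 1196 for Fibcd1. In CA1 against CA3, 4 of 6 were higher, and against DG 1 of 6. Markers of other cells moved in these contrasts too. Against DG, 4 of 7 endothelial markers were higher in CA1, and 2 of 8 neuron and 3 of 6 CA3 neuron markers were lower. Against CA3, 1 of 7 choroid plexus markers was higher and 1 of 8 neuron and 1 of 6 CA3 neuron markers were lower. The part of CA1 neurons and of these other cells in the Rab8b differences was not tested.

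**Figure D5:**
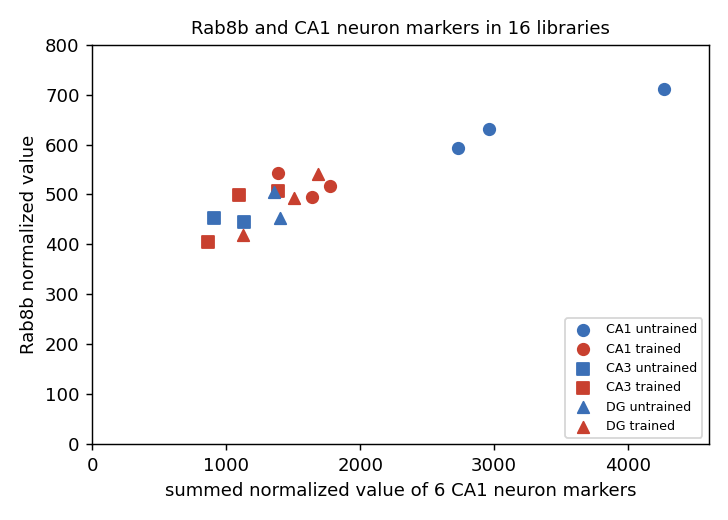
Normalized value of Rab8b against the summed normalized value of 6 CA1 neuron markers in 16 libraries, with colour for training and shape for subregion. The 3 untrained CA1 libraries stand apart with marker sums of 2734 to 4270, and the other 13 have at most 1774.

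Within single subregions the number of Rab genes called stayed low. In CA1, 2 of 51 were higher (all genes 3.53%) and 1 lower (all genes 1.7%), together 5.88% against 5.23%, and 7 had an unadjusted p under 0.05 (13.7%; all genes 18.9%). The trained values lay wholly above the untrained ones for 5 of 51 Rab genes (all genes 12.9%) and wholly below for 2 (all genes 11.1%). Besides Rab15 and Rab6b, the separated higher genes were Rab13, Rab1a and Rab24, and besides Rab8b the lower one was Rab40c, named after their values were seen. With either the sex-linked covariate or the number of genes at 0 as a covariate, limma called 0 Rab genes in CA1, where it also called few of all genes, 6 and 11 in the 2 fits. By unadjusted p, 4 Rab genes passed in each, and 467 and 798 of all genes. In CA3, limma called 0 of 52 (all genes 0.852%), with 8 Rab genes (15.4%) and 2182 of all genes (15.8%) at an unadjusted p under 0.05. There 9 Rab genes were separated upwards and 4 downwards (all genes 17.2% and 16.7%). The CA3 counts rose with those of all genes under some settings. Without trained 1, 2 Rab genes and 680 of all genes were called, with the number of genes at 0 as a covariate 5 and 913, and with all 16 libraries in 1 fit 3 and 422, against 0 and 118. In DG 1 of 52 was called (1.92%, all genes 3.39%) and 8 passed unadjusted (15.4%, all genes 19.5%). There 13 of 52 were separated upwards and 6 downwards, against 17.5% and 18.2% of all genes. In DG 39 of 52 log2 fold changes were above 0 (75%; all genes 50.1%), with a median of 0.08 (all genes 0.00). The DG counts of Rab genes and of all genes both depended on single libraries, being 0 and 28 without trained 2, 2 and 630 without untrained 1, and 8 and 1583 without untrained 3, against 1 and 473. In the last 2 of these fits the lone untrained library was assumed to vary like the trained ones. Other cell types shifted in single subregions too, with 1 of 8 astrocyte markers lower and, of 7 granule cell markers, 1 higher and 1 lower in trained CA1, 2 of 6 choroid plexus markers lower in trained CA3 and 1 of 7 endothelial and 2 of 7 granule cell markers lower in trained DG, and their part was not tested.

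The remaining groups held no called gene in the combined comparison, in which 47.8% of all genes were above 0. Of 8 tested early endosome genes, among them Rab5a, Rab5b and Rab5c, which drive fusion of endocytic vesicles, 7 were above 0, with a median of 0.07 and a range from -0.02 to 0.20. The upper end was Rab4a, which acts in rapid recycling, and the lower Rab5b. The late endosome and lysosome group had 6 of 7 above 0 and a median of 0.07. Rab7, which directs fusion with lysosomes, had a log2 fold change of 0.07 (SE 0.039, adjusted p = 0.277), and Rab24, linked to autophagy, had 0.20, just short of the threshold (SE 0.067, adjusted p = 0.0599). Only 2 of 8 genes of the exocytic and ciliary group were above 0, with a median of -0.03. Rab34 was lowest in that group at -0.31 (SE 0.127, adjusted p = 0.125), and Rab23 followed at -0.18 (SE 0.065, adjusted p = 0.0737). Of the 4 other tested genes 3 were above 0, from Rab40c at -0.14 to Rab39 at 0.21. The genes named at the ends of these ranges were picked after their values were seen.

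Between subregions, Rab8b was the only Rab gene called. In CA1 against CA3, 1 of 52 was called (1.92%; all genes 0.988%), in CA1 against DG 1 of 52 (1.92%; all genes 4.05%), and in CA3 against DG 0 of 52 (all genes 0.00682%, which is 1 gene). By unadjusted p under 0.05, limma gave 6, 9 and 4 Rab genes in these comparisons (11.5%, 17.3% and 7.69%), against 10.2%, 19.6% and 6.86% of all genes. Rab15 was lower in CA1 than in DG by a log2 difference of -0.30 that did not pass (SE 0.104, adjusted p = 0.128). Over the libraries of a subregion, Rab15 was 1017 ± 249.8 (SD, n = 6) in CA1, 1256 ± 387 (SD, n = 5) in CA3 and 1269 ± 210.2 (SD, n = 5) in DG, where CA3 and DG hold fewer untrained libraries. With equal weight for the trained and untrained group means the levels were 1017, 1200.2 and 1233. The equally weighted levels of Rab3a were 1832 in CA1, 1980.5 in CA3 and 1981 in DG, and none of these differences passed in limma, with adjusted p-values of 0.519 for CA1 against CA3, 0.248 for CA1 against DG and 0.989 for CA3 against DG. A test of the difference of training effects between subregions called 0 of 52 Rab genes in each pair (all genes 0.0273% for CA1 against CA3, 2.75% for CA1 against DG and 0.164% for CA3 against DG). By limma's unadjusted p, 2, 10 and 6 Rab genes passed (3.85%, 19.2% and 11.5%), against 6.71%, 17.8% and 11.7% of all genes. Without the CA3 untrained 1 library the subregion calls were 0 in CA1 against CA3 and 2 in CA1 against DG, Rab15 and Rab8b.

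Of the regulators and effectors of Rab proteins, 12 of 128 were called in the combined comparison (9.38%), near the 10.3% of all genes. Among them 1 of 8 chaperone and prenylation genes was higher, 2 of 35 exchange factors were higher and 1 lower, 1 of 32 GTPase activators was higher and 2 lower, and 4 of 53 effectors were higher and 1 lower. The medians were 0.07, 0.00, 0.01 and 0.00, against -0.01 for all genes. Rabac1, a Golgi protein that binds prenylated Rabs, rose by 0.43 on the log2 scale (SE 0.087, adjusted p = 0.00321) and Madd, the exchange factor for Rab3, by 0.19 (SE 0.039, adjusted p = 0.00377). Rph3al, an effector of Rab3 and Rab27 in secretory cells, fell by 0.70 (SE 0.184, adjusted p = 0.0159), and Ric1, part of the Rab6 exchange complex, by 0.17 (SE 0.049, adjusted p = 0.0283).

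In CA1 the 2 effectors with the smallest p were the active zone proteins Rims1 and Rims2, which bind Rab3 on docked vesicles. Rims1 had 1802, 1650.5 and 1658 in untrained and 2239, 2223 and 2008 in trained CA1 (log2 fold change 0.34, SE 0.059, adjusted p = 0.00158). Rims2 had 718, 686 and 665 in untrained and 877, 883 and 899 in trained CA1 (log2 fold change 0.36, SE 0.066, adjusted p = 0.00248). Both were separated. In all, 4 of 52 effectors, 2 of 35 exchange factors, 2 of 32 activators and 0 of 8 chaperone and prenylation genes were higher in CA1, and none was lower. Together these were 8 of 127 (6.3%), against 5.23% of all genes called in CA1. In CA3, limma called 0 of the 128 genes tested in these lists (all genes 0.852%), and 18 had an unadjusted p under 0.05 (14.1%; all genes 15.8%). In DG 4 of 128 were called (3.12%; all genes 3.39%). There Rabac1 rose by 0.84 on the log2 scale (SE 0.100, adjusted p = 0.000346), from 257 and 259 in untrained to 475, 488 and 433 in trained libraries. Lower in DG were the Rab3 effector Rph3a, or rabphilin, by 0.35 (SE 0.065, adjusted p = 0.0104), the Rab35 exchange factor Dennd1a by 0.41 (SE 0.089, adjusted p = 0.0199) and the Golgi tether Golga2 by 0.41 (SE 0.092, adjusted p = 0.024). With the number of genes at 0 as a covariate limma called 0 of all genes in DG, and 1260 passed unadjusted, so the 4 DG calls were lost there. The sex-linked covariate left 6 of all genes called in DG and the fit without trained 2 left 28. The endothelial and granule cell markers that were lower in trained DG, 1 of 7 and 2 of 7, moved with these calls, and their part was not tested. The neuron markers given with Rab15, 6 of 8 of which were higher in trained CA1, moved with the CA1 changes, and their part was not tested.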

How the data were processed

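Bulk RNA-seq libraries of CA1, CA3 and DG were grouped by subregion and training from the sample titles. The labels give polyA RNA, while the library protocol names an rRNA depletion kit. Per the study's methods the authors aligned reads with STAR and quantified genes with Salmon, and the submitters' processing notes name GRCm38, bcl2fastq 2.20, FastQC, Trim Galore, STAR and DESeq2. The deposited signal is an estimated count that the authors normalized between libraries. The counts are not whole and could not be recovered, so depth is unknown and no counting interval is given. A count test was replaced by limma 3.58.1 in R 4.3.3, with trend and robust estimation, on log2(value + 2), and adjusted p-values were taken by Benjamini-Hochberg over all genes tested.

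Genes needed a value of at least 10 in 3 libraries for CA1 and in 2 for the other comparisons. The combined comparison included the subregion, and the libraries of 1 animal were treated as independent. Subregion comparisons and differences of training effects came from 1 fit of 6 groups. Positions and lengths were taken from GENCODE M21, where all 59 Rab genes had 1 gene each, and promoters from RefSeq, where 48 of 59 matched. The fit was tested on simulated data. Rab3 genes, Rab15, called Rab genes, the 5 highest per kb, those under a mean of 10, and the 2 higher and 2 lower called regulators or effectors of a comparison with the smallest p were named by rule. The members, role groups and lists were chosen with earlier results of these data known.

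By their titles, libraries with 1 number in different subregions of a training group come from 1 animal. The Xist values given above differ widely among the libraries labelled untrained 1, so results by animal rest on these labels. Their deviations from the group means had correlations of -0.108 to 0.092 over 14 pairs. The fit with the animal as a block changed no call of a Rab gene in the subregion comparisons or in the differences of training effects. Alternatives covered scaling, filter, robust estimation, covariates for sex-linked transcripts and genes at 0, left-out animals and libraries, 1 fit of all libraries, the replicate block and means per animal. The sex-linked covariate is a score, the mean log2 level of Ddx3y, Eif2s3y, Kdm5d and Uty less the log2 level of Xist. 4 rows with a date in place of a symbol were kept under that name. P-values of single subregions rest on 2 or 3 animals a group. Columns of other values were not used here.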

Additional observations from a re-analysis of the deposited data

Results flagged for a closer look

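Rab14 in the library CA1 trained 3 was 1768.7, apart from the other 8 trained libraries, which had 1489 to 1627. It was 1 of 20 groups examined for a library that stands apart, and chance gives about 1 in 20.

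For 4 of 128 regulators and effectors of Rab proteins (3.12%) the training effect differed between CA1 and DG by an interaction term in limma, a share near the 2.75% of all genes. Rph3a, rabphilin, had 3606, 3805 and 3376 in untrained and 4110.5, 4300.1 and 4277 in trained CA1, and 4484 and 4971 in untrained and 3682, 3913 and 3528 in trained DG. It was higher in trained CA1 and lower in trained DG without overlap, and the difference of effects was 0.59 (SE 0.109, adjusted p = 0.0115). Rims1, with the CA1 values given above, had 2295 and 2183 in untrained and 2018, 2125 and 2040.0 in trained DG, and its effects differed by 0.46 (SE 0.092, adjusted p = 0.0136). Dennd1a had values of 525, 492.7 and 508 untrained and 559, 536 and 555 trained in CA1, against 605 and 667 untrained and 479, 462 and 491 trained in DG, a difference of effects of 0.52 (SE 0.117, adjusted p = 0.0186). Rabac1 had 323, 254 and 345 untrained and 329, 394 and 325 trained in CA1, and its effects differed by -0.65 (SE 0.152, adjusted p = 0.0227), since its rise in DG was larger. With the number of genes at 0 as a covariate the adjusted p-values were 0.822 for Rph3a, 0.372 for Rims1, 0.881 for Dennd1a and 0.682 for Rabac1. Without the animal trained 2 they were 0.0565, 0.0734, 0.0888 and 0.0736. In all, the call was lost in 3 of 16 alternatives for Rph3a, also without untrained 3 (0.0539), and in 3 for Rims1, also without untrained 1 (0.0519). It was lost in 4 for Dennd1a, also without trained 1 (0.0555) or untrained 3 (0.0800), and in 6 for Rabac1, where leaving out any animal but untrained 2 gave 0.0551 to 0.130. The number of genes at 0 was 8323 to 9759 in trained CA1 and 7567 to 8636 in untrained DG, against 3124 to 5425 in untrained CA1 and 3479 to 5944 in trained DG, so it changed with training in opposite directions in these subregions.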

How the results depend on the processing

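Counts of Rab genes called are given here where they differed by more than 1.5 times from those above. With the sex-linked covariate they were 0 in the combined comparison, CA1, DG and CA1 against CA3, and 1 in CA3, which was Rab15, while those of all genes were 0, 6, 6, 121 and 47. With the number of genes at 0 as a covariate they were 0 in CA1 and DG and 5 in CA3 (all genes 11, 0 and 913). In 1 fit of all 16 libraries they were 3 in CA3 and 0 in DG (all genes 422 and 497). Upper-quartile rescaling gave 2 in DG (all genes 480), as did the stricter filter that asks every library to reach 10 (all genes 485). In CA1 against DG, no low-value filter and no robust estimation each gave 0 (all genes 391 and 556). No filter gave 2 differences of training effects between CA1 and DG, Rab17 and Rab7b, with mean values of 1.21 and 10.1. Those of all genes rose there from 404 to 2039. Leaving out 1 animal or library at a time gave 2 to 7 in the combined comparison, 2 to 3 in CA1, 0 to 2 in CA3, 0 to 8 in DG, 0 to 1 in CA1 against CA3 and 0 to 2 in CA1 against DG. The subregion counts fell to 0 without trained 1, trained 3, untrained 1, untrained 2 or the CA3 untrained 1 library in CA1 against CA3, and without trained 1, trained 2, untrained 1 or untrained 3 in CA1 against DG, and the count was 2 there without CA3 untrained 1. For differences of training effects between CA1 and DG the range was 0 to 1, the 1 being without untrained 3, and 0 throughout for the other pairs. Counts of all genes moved in the left-out fits too, between 456 and 1873 in the combined comparison and between 329 and 865 in CA1, against 1517 and 710. The cause of these shifts was not tested.

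Replicate numbers do not pair trained with untrained animals, and with the number as a replicate block the counts were 6 combined, 4 in CA1, 5 in CA3 and 1 in DG, and those of all genes 1394, 559, 1160 and 500. Same-numbered libraries of the other training group had correlations of deviations from -0.180 to 0.119, and 1 of 14 libraries correlated best with its own number.

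Log2 fold changes that reversed were mostly near 0. Rab3d turned to -0.0096 combined without trained 1 and to -0.056 without untrained 3, over a range of -0.056 to 0.060 with 1 animal left out. In CA1 Rab3d turned to -0.013 under upper-quartile rescaling, to -0.13 with the sex-linked covariate, to -0.017 without untrained 1 and to -0.0069 without untrained 3, with a left-out range of -0.017 to 0.056. In DG it turned to -0.11 without untrained 3, with a left-out range of -0.11 to 0.32. With the sex-linked covariate Rab8b in CA1 turned to 0.096, Rab3c in CA1 to 0.53 and Rab3b in DG to -0.014, and with genes at 0 as a covariate Rab3b in CA1 turned to -0.57. Leaving out 1 animal also moved some fold changes that did not pass by over 1.5 times, giving 0.12 to 0.25 for Rab3a in CA1 and, for Rab3c, 0.03 to 0.10 combined, -0.18 to -0.05 in CA1 and 0.07 to 0.31 in CA3. Median-of-ratios rescaling moved no value, and upper-quartile rescaling shifted the median of all genes by at most 0.03.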

Other observations

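Low Rab genes carried some of the wider differences, named here after their values were seen. Rab39, which is linked to endosomes and autophagy, had 5.5 and 5.57 in untrained and 17.7, 20.1 and 16.4 in trained DG. Both untrained values lie below the low-value limit of 10, so Rab39 entered the DG test only through the trained libraries and no test of it is given. It is 1 of the 13 Rab genes separated upwards in DG. In CA1 its groups overlapped, at 16.5, 8.98 and 18.4 untrained and 15.1, 1.64 and 36.9 trained. Rab7b, a late endosomal Rab best known from immune cells, had 14.4, 12.1 and 9.84 in untrained and 2.37, 4.15 and 0 in trained CA1, 26.6 and 16.7 untrained and 5.56, 5.26 and 15.8 trained in CA3, and 0 and 14.2 untrained and 12.7, 8.68 and 13 trained in DG. Trained libraries were below untrained ones in CA1 and CA3 but not in DG, where 1 untrained library was listed at 0. All trained CA1 values of Rab7b lie below the low-value limit of 10. It entered the fit of all libraries only through other groups, so no test of its effects between CA1 and DG is given. The 8 microglia markers summed to 1738 to 2192 over all libraries and none was called with training. Of their differences of training effects between CA1 and DG, 0 of 8 were above 0 (all genes 48.9%), with a median of -0.11. C1qc was the 1 called, at -0.71 (SE 0.183, adjusted p = 0.0355), where 2.75% of all genes were called. Choroid plexus markers had 0 of 7 above 0 (median -1.65), and CA1 neuron markers 0 of 6 (median -1.15) with 1 called. Endothelial and granule cell markers went the other way, with 7 of 7 above 0 in each list. The part of any of these cells in the Rab7b values was not tested.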
